A study of Mus musculus with 24 samples.

Results

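Liver and white adipose tissue of the same kind of mouse were compared at a single time of day. The comparison rests on 6 of the 24 arrays of the series: liver (3 arrays) and white adipose tissue (3 arrays) of control mice at ZT1. ZT counts hours from lights on, so ZT1 falls early in the light phase. Per the labels, the control mice are hPER1 S714 mice on a C57BL/6 background, male and 2 months old. They carry the human clock gene PER1 in its S714 form, and the mutant mice of the series carry S714G instead. All had been entrained to cycles of light and dark over 10 days before tissues were frozen in liquid nitrogen. Trizol total RNA was labelled with Cy3 and hybridised to 1-colour Agilent mouse arrays. Every group used here therefore carries a human PER1 gene, and no group without it is analysed here. The labels give neither the promoter of that gene nor the fat depot, and they call the 3 samples of a group independent repeats without saying which samples share an animal. The p-values below measure the spread between these samples.

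The liver is built mainly of hepatocytes, which secrete most plasma proteins, make glucose and bile acids, detoxify drugs and turn amino nitrogen into urea. White adipose tissue stores triglyceride in adipocytes, which fill with 1 lipid droplet each and release fatty acids, glycerol and hormones such as leptin and adiponectin. Both organs also hold endothelial cells, macrophages, mesenchymal cells and nerve fibres. In whole-tissue RNA, fewer cells of a type and less RNA per cell cannot be told apart. Levels below are log2 processed signals relative to the 75th percentile of the same array, so 0 is the signal of a bright probe. Where the level of a gene is given as a run of values, these are replicates 1, 2 and 3 of adipose tissue and then of liver. A difference is liver minus adipose tissue, so positive values are higher in liver. A gene is called higher or lower where limma's two-sided Benjamini-Hochberg adjusted p over all 20965 genes tested was under 0.05. Genes were tested where the probe was well above background on all usable arrays of at least 1 tissue. Where it was so on only 1 or 2 of the 3 arrays of the other tissue, the difference rests partly on values at background, and this is said at the end of the paragraph.

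The 6 arrays lay on 1 slide, with no saturated spots. Spots well above background made up 45.5% to 71.2% per array, and 75th percentiles lay between 377 and 1279 intensity units. The lowest signal of a probe well above background, on the scale of the levels, was -5.58, -3.91 and -4.88 on the adipose arrays and -4.02, -4.32 and -2.83 on the liver arrays. Liver arrays correlated with each other at 0.955 to 0.978 and adipose arrays at 0.947 to 0.959. Adipose replicate 2 stood apart. It correlated with the liver arrays at 0.861 to 0.879, against 0.769 to 0.807 for adipose replicates 1 and 3.

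Adipose replicate 2 carried many transcripts of hepatocytes, and this touches every result on a gene of that cell type. The median level of the 19 hepatocyte markers on the array was 2.22, 5.16 and 2.98 on the adipose arrays and 6.67, 6.85 and 6.97 on the liver arrays. Replicate 2 was the highest adipose array for 19 of these 19 markers, whereas it was the highest for 27.6% of all genes. As a share of the mean liver signal, the marker median was 5.30%, 28.4% and 4.24% on the 3 adipose arrays. Albumin, the main plasma protein (Alb, probe on mm9 chromosome 5, 90901598 to 90901657), stood at 4.95, 7.02 and 5.19 in adipose tissue and 8.27, 8.44 and 8.74 in liver. It is a list member given here as the best known product of hepatocytes, and was chosen after its values were seen. The 18 adipocyte markers showed no such spread, with medians of 4.58, 4.69 and 4.66 on the adipose arrays and -3.00, -3.29 and -3.68 on the liver arrays. The plot of both marker lists by array shows the raised hepatocyte markers in adipose replicate 2 and level adipocyte markers.

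**Figure D1:**
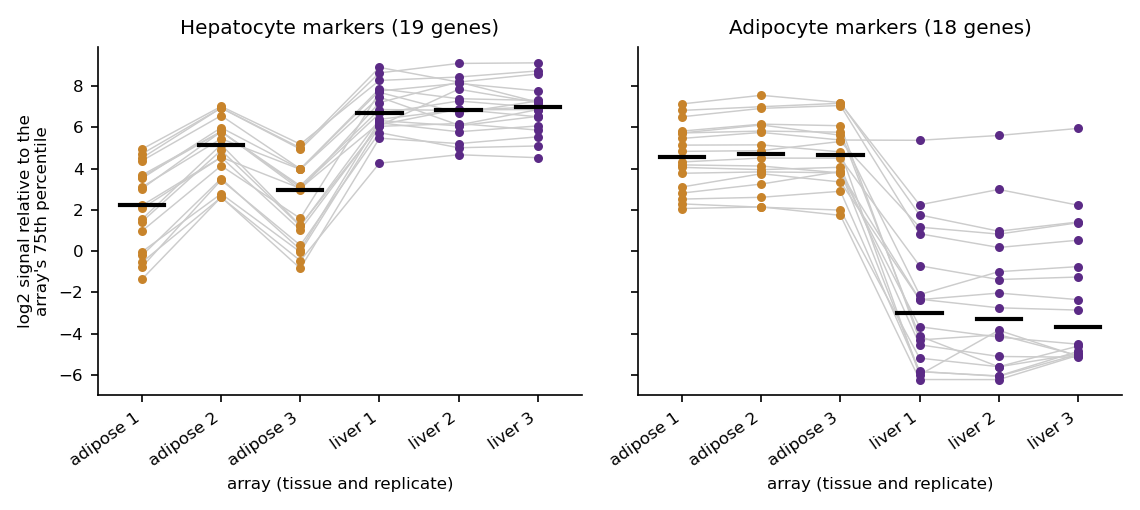
Level of each hepatocyte marker (19 genes, left) and adipocyte marker (18 genes, right) on the 6 arrays, as log2 signal relative to the 75th percentile of the array. Points joined by grey lines are 1 gene and black bars are the median of the list. The hepatocyte median of adipose replicate 2 is 5.16, above the 2.22 and 2.98 of the other adipose arrays and below the 6.67 to 6.97 of the liver arrays.

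Hepatocyte transcripts were not limited to replicate 2. Across the 9 adipose arrays of the other 3 conditions (mutant ZT1, control ZT13 and mutant ZT13), the hepatocyte marker level ran from -4.37 to 2.46, and in the 12 liver arrays of the series from 6.55 to 7.18. Adipose replicates 1 and 3 of the control ZT1 group thus lay at 2.22 and 2.98, near or above the top of that range. The lowest adipose array, mutant ZT1 replicate 2 at -4.37, was hybridised on the same slide as the 6 arrays compared here. The part that these transcripts play in each difference was not tested, and the medians of the lists of hepatocyte products and liver metabolism are also given without adipose replicate 2.

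**Figure D2:**
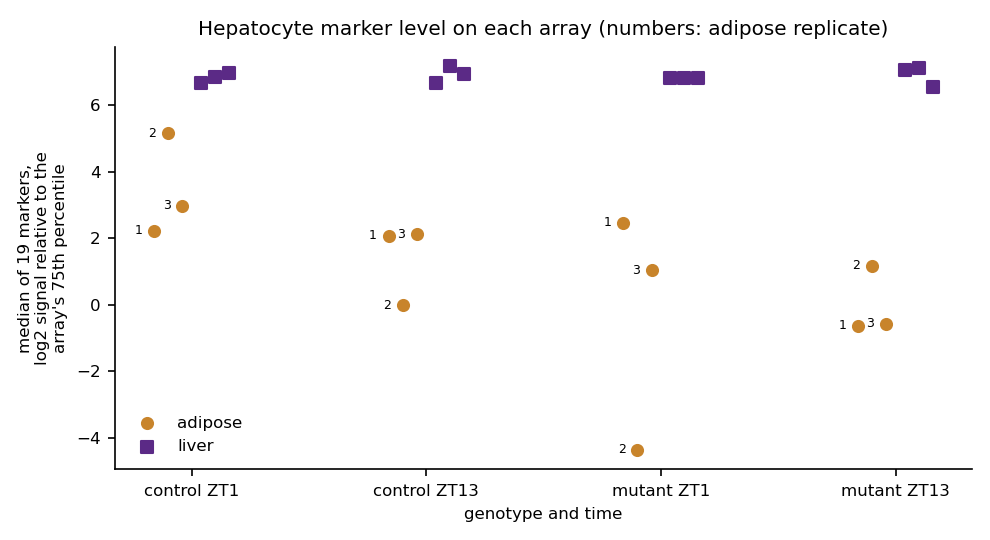
Median level of the 19 hepatocyte markers on each of the 24 arrays, by genotype and time. Circles are adipose arrays, with the replicate number beside them, and squares are liver arrays. Liver arrays lie between 6.55 and 7.18, and adipose arrays between -4.37 (mutant ZT1 replicate 2) and 5.16 (control ZT1 replicate 2).

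Promoters of liver genes are shown to give the short motifs of hepatocyte factors that lie upstream of some of them. HNF1 and HNF4A are transcription factors that drive hepatocyte genes, and the motifs searched for them on both strands were TTAATNATT for HNF1 and CAAAGTCCA for HNF4. A RefSeq promoter (GRCm38.p6, 250 bases before to 50 after the start) was matched for 11533 of the 20965 genes tested. The HNF1 motif was present in 1.12% of them, in 5.19% of the 964 promoters of genes past 2-fold higher in liver, and in 0.943% of the 1166 promoters of genes past 2-fold higher in adipose tissue. The HNF4 motif was present in 0.607%, 2.28% and 0.343% of the same sets. The forkhead motif TGTTTAC, searched on both strands, was found in 3.29%, 5.39% and 3.69%, and the TATA box TATAAA, searched on the strand of the gene, in 6.89%, 11.2% and 7.63%. The C/EBP motif TTGCGCAA was rare, at 0.303%, 0.104% and 0.257%, which are 35, 1 and 3 promoters. The PPAR motif GGTCANAGG was found in 1.95%, 2.8% and 1.72%, both searched on both strands. Of the 14 hepatocyte markers with a promoter, 0 held the HNF1 motif and 1 the HNF4 motif. These shares are descriptions of the letters in these windows, with no test. Shown are the 250 bases before the start of the sulfotransferase Sult1d1 (chr5:87569007-87569256, minus strand) and of the clotting factor subunit F13b (chr1:139501457-139501706, plus strand), with the HNF1 motif of either strand in capitals. The bile acid enzyme Cyp8b1 (chr9:121916306-121916555, minus strand) follows, with the HNF4 motif in capitals. All are written 5′ to 3′ on the strand of the gene and come from RefSeq, GRCm38.p6. They are the genes of largest difference among those holding the motif in these 250 bases, less the ones not described below.
Sult1d1: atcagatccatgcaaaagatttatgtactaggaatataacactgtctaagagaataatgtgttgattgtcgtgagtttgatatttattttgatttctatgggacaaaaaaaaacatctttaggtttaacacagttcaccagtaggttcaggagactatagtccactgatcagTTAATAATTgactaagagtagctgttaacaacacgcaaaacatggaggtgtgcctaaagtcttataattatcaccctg
F13b: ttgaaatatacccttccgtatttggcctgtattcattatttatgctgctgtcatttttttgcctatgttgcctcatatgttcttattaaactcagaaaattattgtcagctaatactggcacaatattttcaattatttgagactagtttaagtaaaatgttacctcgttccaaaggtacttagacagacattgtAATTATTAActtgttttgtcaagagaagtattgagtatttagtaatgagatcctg
Cyp8b1: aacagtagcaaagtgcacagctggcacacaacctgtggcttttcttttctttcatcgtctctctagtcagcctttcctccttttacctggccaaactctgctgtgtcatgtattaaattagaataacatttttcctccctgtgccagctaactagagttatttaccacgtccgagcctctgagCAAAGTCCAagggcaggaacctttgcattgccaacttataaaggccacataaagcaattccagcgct
The motif begins 78 bases before the start in Sult1d1, 55 in F13b and 67 in Cyp8b1. On the adipose arrays Sult1d1 stood at -3.75, -0.04 and -3.33, F13b at -2.63, 1.10 and -2.47 and Cyp8b1 at -2.91, 0.37 and -3.17. On the liver arrays Sult1d1 stood at 3.46, 3.66 and 3.86, F13b at 3.76, 4.46 and 4.18 and Cyp8b1 at 4.19, 4.58 and 4.27. In each of them adipose replicate 2 was the highest adipose value.

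Of the 20965 genes tested, 8617 were called, 41.1% of all. Higher in liver were 4614 genes (22.0%) and higher in adipose tissue 4003 (19.1%). The counts of called members given for each list below stand against these shares. Most differences were small, since the median was 0.18 and the quartiles were -0.62 and 0.77. A test against a fold of 2 called 3266 genes (15.6%), with 1522 higher in liver (7.26%) and 1744 higher in adipose tissue (8.32%). Without adipose replicate 2, and with 24468 genes tested, 7265 were called (29.7%), with 3398 higher in liver (13.9%) and 3867 higher in adipose tissue (15.8%). How the genes split between the tissues depended on the scaling. With each array set to the 75th percentile of the probes detected on all 6 arrays, 3283 of 8054 called genes were higher in liver (40.8%), against 53.5% under the main scaling, and the median of all genes moved from 0.18 to -0.06. Quantile normalization put that median at -0.02.

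The 10 largest differences toward liver were taken among called genes above background on at least 1 array of each tissue. The genes also had to have an ordinary symbol (no Rik, Gm, LOC or accession name) and no overlap between liver and adipose values. Their differences ranged from 6.74 to 6.23. Spp1, the secreted phosphoprotein osteopontin (probe on mm9 chromosome 5, 104868502 to 104868561), stood at -5.61, -2.14 and -5.60 in adipose tissue and 1.79, 2.63 and 2.44 in liver, a difference of 6.74 ± 0.88 (log2, SE; 7.89 without adipose replicate 2; adjusted p = 0.00084). Foxa1, a pioneer factor of endoderm, differed by 6.57 ± 1.14, and Aqp9, the glycerol channel of hepatocytes, by 6.46 ± 1.13. Inhbc, which encodes a subunit of activin C, differed by 6.27 ± 0.97, and Serpina7, thyroxine-binding globulin, by 6.30 ± 0.98. Urad, an enzyme of uric acid breakdown, differed by 6.44 ± 1.11, and Mup9, a major urinary protein, by 6.50 ± 1.23. Kdf1 and Necab1 completed the 10 largest with 6.25 ± 0.91 and 6.23 ± 0.83, beside Cyp8b1 at 6.25 ± 0.86. In all 10 the highest adipose array was adipose replicate 2. Without it the same differences ranged from 7.33 (Necab1) to 8.15 (Mup9). Mup9 belongs to a family of near-identical genes, as do members of the Cyp, Ugt, Sult and Saa families named below, so a probe may also read a relative. Spp1, Foxa1, Urad, Mup9 and Necab1 were well above background on 1 of the 3 adipose arrays, and Aqp9 and Serpina7 on 2 of the 3 adipose arrays.

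Where adipose tissue showed no signal above background on any array, only a lower bound of the fold can be given. The bound sets the mean of the bright group against the detection floor of the dim one. The largest bounds toward liver, among called genes with an ordinary symbol, were at least 27.7-fold for the potassium channel Kcnj10. The cytochrome Cyp2b9 followed with at least 27.5-fold. Dlgap1 was at least 27.4-fold higher, the synaptotagmin Syt1 at least 26.2-fold, and the tight junction gene Cldn1 at least 22.7-fold. Slc30a10, a manganese exporter, was at least 20.7-fold higher, with -0.23, -0.26 and -0.77 on the liver arrays. Of the 20965 genes tested, 98 were such called genes toward liver and 738 toward adipose tissue. Spots well above background made up 45.5% to 56.8% on the liver arrays and 52.0% to 71.2% on the adipose arrays. Adipose replicate 2 also carried hepatocyte transcripts. These counts therefore do not compare how many genes each organ has to itself.

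The 10 largest differences toward adipose tissue, under the same limits on background, symbol and overlap, ranged from -10.01 to -7.10. Sncg, gamma-synuclein (probe on mm9 chromosome 14, 35183497 to 35183556), stood at 5.14, 5.15 and 4.81 in adipose tissue and -5.99, -3.83 and -5.09 in liver, a difference of -10.01 ± 0.50 (adjusted p = 2.11e-05). Its liver values on replicates 1 and 3 lie below the lowest signal well above background on those arrays, so neither this size nor its rank is exact. Plin4, a lipid droplet coat protein (probe on mm9 chromosome 17, 56240055 to 56240114), stood at 5.83, 6.17 and 6.19 in adipose tissue and -3.43, -4.10 and -3.64 in liver, a difference of -9.79 ± 0.26. Nnat, an imprinted membrane protein, differed by -8.91 ± 0.36, and Cfd, the adipocyte-secreted complement factor adipsin, by -7.10 ± 0.38. Aoc3, a surface amine oxidase of fat and vessels, differed by -8.06 ± 0.29. Its value on liver replicate 3 was dropped as an outlier spot, and a second Aoc3 probe gave -2.65. F13a1, a transglutaminase of clotting found in macrophages, differed by -7.59 ± 0.43, with a second probe at -3.74. Chst1 (-7.55 ± 0.42), Slc1a5 (-7.34 ± 0.39) and Slc1a3 (-7.28 ± 0.72) were also among the 10 largest. The last pair transports neutral amino acids and glutamate. Without adipose replicate 2 the differences of these 10 genes ranged from -9.95 (Sncg) to -6.96 (Cfd). Sncg, Plin4, Nnat, F13a1 and Slc1a3 were well above background on 1 of the 3 liver arrays, and Chst1 on 2 of the 3 liver arrays.

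The largest bounds toward adipose tissue, again among called genes with an ordinary symbol, were at least 879-fold for Rgcc, a cell cycle regulator. Cidec and Plin1 followed with at least 803-fold and at least 721-fold. Cidec fuses lipid droplets and Plin1, perilipin, coats them and gates lipolysis. Plin1 (probe on mm9 chromosome 7, 86866112 to 86866171) stood at 5.73, 5.82 and 5.77 in adipose tissue and -4.11, -5.60 and -4.97 in liver. Phgdh, the first enzyme of serine synthesis, was at least 573-fold higher in adipose tissue, and Retnla, a resistin-like secreted protein, at least 460-fold. Cbr2, a carbonyl reductase, followed with at least 272-fold, Penk, proenkephalin, with at least 204-fold, and Trarg1, a regulator of GLUT4 traffic, with at least 215-fold. Myl1, a myosin light chain of skeletal muscle, was at least 215-fold higher, with 3.20, 4.47 and 4.40 on the adipose arrays.

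Genes higher in either tissue also gave signal in the other. Both sets below include genes at background in the dimmer tissue, so a share of signal need not be expression. For the 1522 genes past 2-fold higher in liver, the median signal on the adipose arrays was 7.44%, 17.1% and 8.15% of the liver mean. For the 1744 genes past 2-fold higher in adipose tissue, the liver arrays held 12.4%, 11.8% and 12.9% of the adipose mean, with no liver array apart. The plot of single genes shows both patterns.

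**Figure D3:**
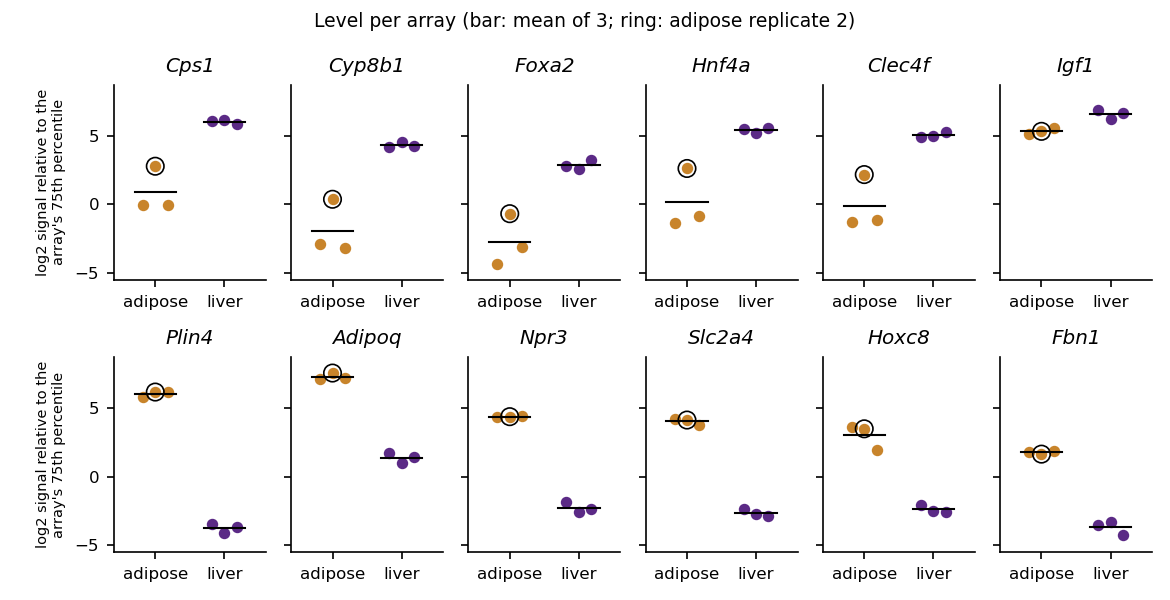
Level of single genes on each array, as log2 signal relative to the 75th percentile of the array. Points are arrays (orange adipose, purple liver), bars are means of 3 arrays, and the ring marks adipose replicate 2. For Cps1 the ringed value is 2.78 and the other adipose values are -0.03 and -0.04, whereas for Plin4 the adipose values lie between 5.83 and 6.19.

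Hepatocyte secretory genes were higher in liver. All 19 hepatocyte markers were called higher in liver, where 22.0% of all genes were, with a median difference of 3.42, or 4.21 without adipose replicate 2, against 0.18 for all genes. Fga, a chain of fibrinogen, stood at -0.21, 3.52 and 0.08 in adipose tissue and 6.33, 6.08 and 6.54 in liver, a difference of 5.18 ± 0.90 (6.38 without adipose replicate 2; adjusted p = 0.00294). Of 25 plasma protein genes, 23 were called higher in liver and 0 higher in adipose tissue, with a median of 2.89 (3.66 without adipose replicate 2, and 22 called). Serpina6, the carrier of glucocorticoids, differed by 4.79 ± 0.86, Azgp1, a zinc-binding glycoprotein, by 4.49 ± 0.91, and Hpx, the heme carrier hemopexin, by 3.95 ± 0.80. Hrg, histidine-rich glycoprotein, stood at 1.07, 4.38 and 1.61 in adipose tissue and 7.58, 6.71 and 7.03 in liver. Adipose replicate 2 lay nearer to the lowest liver value than to the other adipose arrays.

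Clotting genes went both ways. Of 28 genes of coagulation and fibrinolysis, 20 were called higher in liver and 7 higher in adipose tissue, against 22.0% and 19.1% of all genes. The median was 3.39, or 4.28 without adipose replicate 2. The share toward adipose tissue was thus not far from that of all genes. F7, which starts the extrinsic pathway, differed by 5.43 ± 0.79, Cpb2, which slows clot lysis, by 5.65 ± 0.99, and Serpinf2, the plasmin inhibitor, by 5.38 ± 0.84. Those named next were higher in adipose tissue and act at the vessel wall or in clot lysis. Plat, tissue plasminogen activator, stood at 1.79, 1.65 and 1.98 in adipose tissue and -2.38, -2.02 and -2.56 in liver, a difference of -4.13 ± 0.24. F3, tissue factor, differed by -2.82 ± 0.33, Thbd, thrombomodulin, by -3.53 ± 0.30, and Plau, urokinase, was at least 5.75-fold higher in adipose tissue. F13a1 and F13b, which encode the subunits of factor XIII, lay on opposite sides, at -7.59 ± 0.43 and 5.46 ± 0.91.

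Complement genes also had calls both ways. Of 27 genes, 16 were called higher in liver and 4 higher in adipose tissue, against 22.0% and 19.1% of all genes. The share toward adipose tissue was thus under that of all genes. The median was 1.71 (1.95 without adipose replicate 2). C9, a component of the membrane attack complex, differed by 5.50 ± 0.93, C8b, another, by 4.51 ± 0.81, and C4bp, an inhibitor in plasma, by 5.06 ± 0.96. Cfd, of the alternative pathway, was higher in adipose tissue, at 5.73, 6.12 and 5.62 in adipose tissue and -2.10, -0.99 and -0.75 in liver. C1qb, a chain of C1q made by macrophages, had a difference of -0.81 ± 0.23 (adjusted p = 0.0234, and 0.101 without adipose replicate 2). The receptors C3ar1 (-1.98 ± 0.41) and C5ar1 (at least 1.86-fold) were higher in adipose tissue.

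Lipoprotein genes were called higher in liver in 21 of 28 cases and higher in adipose tissue in 3 (median 3.18, 3.12 with genes below background set to their bound, and 3.96 without adipose replicate 2). Apoa5, an activator of triglyceride clearance, stood at -3.80, -0.42 and -3.17 in adipose tissue and 3.01, 2.92 and 3.13 in liver, a difference of 5.48 ± 0.78 (6.50 without adipose replicate 2). Apoa4 differed by 5.42 ± 1.02, Apom by 5.05 ± 0.74, and Lcat, which esterifies cholesterol in plasma, by 5.22 ± 0.80. Among those higher in adipose tissue, Lpl, lipoprotein lipase, stood at 6.57, 6.68 and 7.32 in adipose tissue and 4.38, 4.02 and 4.02 in liver, and Vldlr, a receptor for triglyceride-rich particles, at 2.27, 2.52 and 2.74 in adipose tissue and -1.30, -1.91 and -0.81 in liver.

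Acute phase and iron genes also favoured liver. Of 14 acute phase genes, 10 were called higher in liver and 1 higher in adipose tissue (median 2.07, or 2.56 without adipose replicate 2). Crp, C-reactive protein, differed by 5.59 ± 0.83, and Saa4 by 5.43 ± 0.85. Saa1 stood at 0.15, 3.05 and -0.25 in adipose tissue and 5.07, 5.07 and 4.99 in liver. Of 18 iron genes, 12 were called higher in liver and 2 higher in adipose tissue (median 2.24, or 2.50 without adipose replicate 2). Hamp, the iron hormone hepcidin, stood at -1.44, 2.44 and -1.68 in adipose tissue and 3.88, 5.14 and 4.96 in liver, a difference of 4.88 ± 1.03 (6.21 without adipose replicate 2). Hjv, its upstream co-receptor hemojuvelin, differed by 5.94 ± 0.73, and Slc40a1, the iron exporter that hepcidin closes, by 2.58 ± 0.36. Heph, the ferroxidase that works with that exporter, was higher in adipose tissue, at 1.46, 2.08 and 2.30 in adipose tissue and -2.51, -3.34 and -3.01 in liver. Hjv was well above background on 1 of the 3 adipose arrays, and Heph on 2 of the 3 liver arrays.

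Genes of amino acid breakdown and the urea cycle were higher in liver. Of 35 genes, 34 were called higher in liver and 0 higher in adipose tissue, with a median of 4.19 (5.03 without adipose replicate 2). Cps1, which takes ammonia into the urea cycle (probe on mm9 chromosome 1, 67276029 to 67276088), stood at -0.03, 2.78 and -0.04 in adipose tissue and 6.05, 6.19 and 5.87 in liver, a difference of 5.13 ± 0.71 (6.07 without adipose replicate 2; adjusted p = 0.00111). Nags, which makes its activator, differed by 5.60 ± 0.71, and Otc, the next enzyme, by 5.57 ± 1.12. Hgd, of tyrosine breakdown, differed by 5.75 ± 0.94, and Gldc, of glycine breakdown, by 5.47 ± 0.72. Genes of branched-chain amino acid breakdown had 3 called higher in liver, 3 higher in adipose tissue and 11 not called of 17, near the 22.0% and 19.1% of all genes (median 0.48, and 1 and 2 called without adipose replicate 2). Bcat2, the first enzyme of that pathway, was higher in adipose tissue, at 3.16, 2.07 and 3.21 in adipose tissue and 0.44, 0.16 and -0.20 in liver. Ppm1k, the phosphatase that activates the next step, was higher in liver, at 2.42 ± 0.39.

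Cytochrome P450 and bile acid genes had larger medians still. Of 33 cytochrome P450 genes, 30 were called higher in liver and 1 higher in adipose tissue (median 4.65, or 5.64 without adipose replicate 2). Cyp7a1, the rate-limiting enzyme of bile acid synthesis, stood at -5.78, -0.51 and -4.24 in adipose tissue and 1.90, 1.89 and 2.29 in liver, a difference of 5.53 ± 1.15 (7.03 without adipose replicate 2). Cyp26a1, which clears retinoic acid, differed by 5.29 ± 0.72, and Cyp3a25 by 5.36 ± 0.88. The 1 cytochrome higher in adipose tissue was Cyp1b1, an extrahepatic form that oxidises estrogens, at 0.68, 0.51 and 1.26 in adipose tissue and -2.91, -4.22 and -4.98 in liver. Of 19 bile acid genes, 17 were called higher in liver and 0 higher in adipose tissue (median 4.73, or 5.76 without adipose replicate 2). Baat, which conjugates bile acids, differed by 5.51 ± 0.84, Akr1d1, a reductase of their synthesis, by 5.47 ± 0.82, and the nuclear receptor Nr0b2, which represses Cyp7a1, by 5.20 ± 0.59. Of 32 genes of conjugation and detoxification, 25 were called higher in liver and 2 higher in adipose tissue (median 2.10, or 2.39 without adipose replicate 2). Sult1b1 differed by 6.17 ± 0.97, Gsta2 by 5.86 ± 0.79 and Glyat, which conjugates glycine, by 5.56 ± 0.95. Fmo2, a flavin monooxygenase, was higher in adipose tissue, at -2.32 ± 0.34. The other, Nnmt, had -0.71 ± 0.24 with its brightest probe and 0.19 with the median over its probes. Cyp26a1, Sult1b1 and Gsta2 were well above background on 1 of the 3 adipose arrays, Cyp7a1 and Akr1d1 on 2 of the 3 adipose arrays, and Cyp1b1 on 1 of the 3 liver arrays.

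Genes with a zone or a sex bias in liver followed the same direction. Periportal genes were called higher in liver in 10 of 11 cases (median 4.69, or 5.57 without adipose replicate 2), and pericentral genes in 9 of 11, with 1 higher in adipose tissue (median 1.99, or 2.17). Cyp1a2, a pericentral enzyme, differed by 4.68 ± 1.07. Lgr5, a receptor of pericentral cells, stood at -2.07, -3.75 and -5.78 in adipose tissue and 0.86, -0.85 and 0.29 in liver. Axin2, a target of Wnt signals in many tissues, was higher in adipose tissue, at -2.16 ± 0.34. All 11 male-biased liver genes tested were called higher in liver (median 4.73, or 5.69 without adipose replicate 2). Cyp2d9 stood at 1.43, 5.31 and 2.39 in adipose tissue and 8.39, 7.46 and 8.03 in liver, and Hsd3b5, a reductase of male liver, at -2.50, 1.51 and -1.45 in adipose tissue and 5.18, 3.79 and 5.05 in liver. Of 4 female-biased genes tested, 2 were called higher in liver. Cyp2b9 was one of them, with 1.15, -0.56 and -0.03 on the liver arrays. Lgr5 was well above background on 1 of the 3 adipose arrays, and Axin2 on 2 of the 3 liver arrays.

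Glucose genes split by isozyme. Of 21 genes of glucose output and glycogen, 15 were called higher in liver and 0 higher in adipose tissue (median 2.92, or 3.27 without adipose replicate 2). G6pc, which releases free glucose, stood at -0.08, 2.40 and 0.11 in adipose tissue and 5.50, 5.81 and 5.20 in liver, a difference of 4.69 ± 0.63 (5.49 without adipose replicate 2). Gckr, a regulatory protein of liver glucose metabolism, differed by 5.85 ± 0.90. Gcgr, the glucagon receptor, which the insulin list holds, differed by 4.44 ± 0.67. Pck1, the control enzyme of gluconeogenesis and of glyceroneogenesis in fat, was not called, at 5.47, 5.76 and 5.39 in adipose tissue and 5.37, 5.61 and 5.95 in liver (difference 0.11 ± 0.25, adjusted p = 0.754). It is also in the adipocyte list, where it was the 1 of 18 members not called, and was named for that after its values were seen.

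Several reactions use an enzyme form of their own in liver. In 21 pairs, 16 liver forms were called higher in liver and 1 higher in adipose tissue. Of the other forms 19 were tested, and 15 were called higher in adipose tissue and 1 (Hmgcs1, of sterol synthesis) higher in liver. In 11 pairs the 2 forms were called in opposite directions. Hexokinase 2, Hk2, a form of muscle and fat, stood at 2.33, 2.25 and 2.71 in adipose tissue and -2.47, -3.34 and -2.81 in liver. The transporter Slc2a2 (GLUT2) differed by 5.27 ± 0.95 and Slc2a4 (GLUT4, the insulin-regulated transporter) by -6.67 ± 0.25. Pyruvate kinase Pklr differed by 5.86 ± 1.05 and Pkm by -3.02 ± 0.46. The glycerol channel Aqp9 differed by 6.46 ± 1.13, and Aqp7, the channel of fat cells, was at least 84.5-fold higher in adipose tissue. Glycogen synthase Gys2 differed by 2.13 ± 0.33 and Gys1 by -4.52 ± 0.23. Gls2, a glutaminase of liver, differed by 5.12 ± 0.82. The nuclear receptor Ppara, which drives fatty acid oxidation, differed by 3.14 ± 0.36, and Pparg, which drives fat cell formation, by -3.88 ± 0.26. Pklr was well above background on 1 of the 3 adipose arrays, and Hk2 and Slc2a4 on 2 of the 3 liver arrays.

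Some forms were not called or went the other way. Hmgcs1 differed by 0.96 ± 0.24, and its call was lost under quantile normalization and without liver replicate 3. Pfkl, the liver form of phosphofructokinase, was higher in adipose tissue (-1.29 ± 0.26), and Pfkp was not called (-0.59 ± 0.28, adjusted p = 0.134), though a second Pfkp probe gave -3.40. The desaturase Scd1 was not called (0.49 ± 0.36, adjusted p = 0.314), whereas Scd2 was higher in adipose tissue (-4.85 ± 0.26). Irs2, a substrate of the insulin receptor, was not called (-0.06 ± 0.48, adjusted p = 0.926), nor was the phosphorylase Pygl (1.01 ± 0.35, adjusted p = 0.0541).

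**Figure D4:**
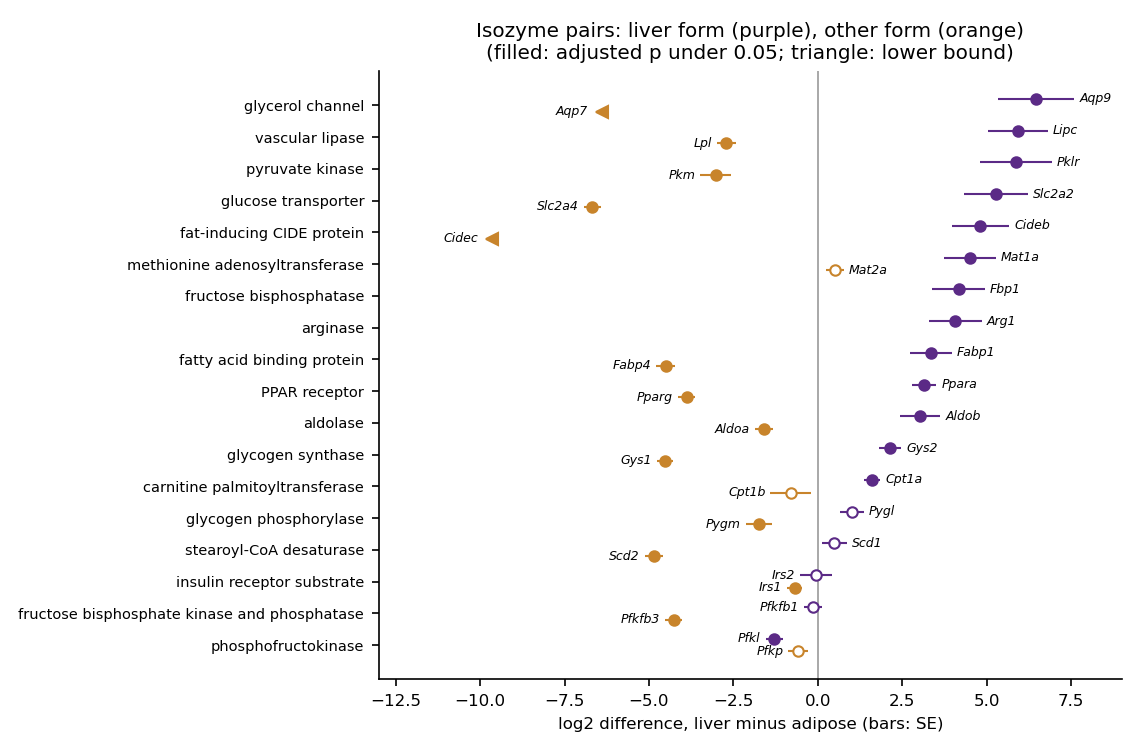
Difference in log2 signal, liver minus adipose tissue, for 18 of the 21 pairs of isozymes, with the standard error as bar. Purple points are liver forms, orange points the other forms, filled points have an adjusted p under 0.05, and 2 other forms were not tested. Triangles are lower bounds for forms not well above background in liver (84.5-fold for Aqp7 and 803-fold for Cidec). Points of liver forms reach 6.46 (Aqp9) and points of other forms -6.67 (Slc2a4).

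Fatty acid genes had calls toward both organs, with counts that differed by step. Oxidation and ketogenesis were called higher in liver in 13 of 23 genes and higher in adipose tissue in 1 (median 1.34, or 1.39 without adipose replicate 2). Bdh1, of ketone body synthesis, stood at -2.39, 1.45 and -1.62 in adipose tissue and 4.86, 3.98 and 4.66 in liver. Cyp4a14, a fatty acid hydroxylase, differed by 4.35 ± 0.79, and Oxct1, which lets tissues other than liver use ketone bodies, was the 1 gene higher in adipose tissue, at 2.96, 3.48 and 3.16 in adipose tissue and -0.90, -1.15 and -0.85 in liver. Synthesis of fatty acids and triglyceride had 5 called higher in liver and 8 higher in adipose tissue of 23, against 22.0% and 19.1% of all genes (median -0.16, and 4 and 5 called without adipose replicate 2). Fasn, fatty acid synthase, was higher in adipose tissue, at 3.36, 3.02 and 2.56 in adipose tissue and 0.74, 0.64 and -0.28 in liver. Lpin1 (-2.63 ± 0.27) and Mogat1 (-4.67 ± 0.77), both of triglyceride assembly, were also higher in adipose tissue, and the desaturases Fads1 (2.29 ± 0.26) and Fads2 (4.20 ± 0.65) were higher in liver. Uptake and activation had 11 called higher in liver and 6 higher in adipose tissue of 21 (median 1.33, or 1.41 without adipose replicate 2), with Slc27a2 at 3.49 ± 0.76, Fabp2 at 5.16 ± 0.93, Cd36 at -3.58 ± 0.24 and Slc27a1 at -4.76 ± 0.23. Cholesterol synthesis had 18 called higher in liver and 0 higher in adipose tissue of 23 (median 1.65), and 14 were called (median 1.54) without adipose replicate 2.

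The transcription factors that hold hepatocyte identity had the highest median of the lists in the plot of list medians, at 4.96 (5.96 without adipose replicate 2). Of 21 factors, 18 were called higher in liver and 1 higher in adipose tissue. Hnf4a (probe on mm9 chromosome 2, 163398548 to 163398607) stood at -1.35, 2.62 and -0.83 in adipose tissue and 5.48, 5.21 and 5.54 in liver, a difference of 5.27 ± 0.93 (6.50 without adipose replicate 2; adjusted p = 0.00322). Foxa2 differed by 5.59 ± 0.82, Foxa3 by 5.84 ± 0.95, and Nr1i3, the xenobiotic receptor CAR, by 5.30 ± 0.65. The 1 factor higher in adipose tissue was Gata6 (-0.88 ± 0.23, adjusted p = 0.0181, and 0.0732 without adipose replicate 2). Gata4 differed by 6.01 ± 0.92 in the opposite direction. Gata4 was well above background on 2 of the 3 adipose arrays.

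Adipocyte genes were higher in adipose tissue. Of 18 adipocyte markers, 17 were called higher there, with a median difference of -7.18 (-6.36 with genes below background in liver set to their bound, and -7.11 without adipose replicate 2). Adipoq, adiponectin (probe on mm9 chromosome 16, 23157576 to 23157635), stood at 7.14, 7.56 and 7.20 in adipose tissue and 1.76, 0.97 and 1.41 in liver, a difference of -5.92 ± 0.28 (adjusted p = 1.6e-05). It was well above background on every liver array. Lep, leptin, stood at 2.29, 2.13 and 1.99 on the adipose arrays and was at least 58.1-fold higher there. Retn, resistin, differed by -6.31 ± 0.27, and a second probe by -10.79. Lgals12, a galectin of lipid droplets, was at least 164-fold higher. Of 16 adipokines, 10 were called higher in adipose tissue and 3 higher in liver (median -2.90, or -2.69 at the bounds). Serpina12, vaspin, was one of the latter, at least 19.2-fold higher in liver.

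Lipid droplet and lipolysis genes were called higher in adipose tissue in 21 of 28 cases and higher in liver in 4 (median -2.23). Npr3, the clearance receptor of natriuretic peptides, stood at 4.33, 4.37 and 4.42 in adipose tissue and -1.86, -2.56 and -2.36 in liver, a difference of -6.63 ± 0.25. The genes of the list higher in liver were Aqp9, Plin5, a droplet protein tied to mitochondria (2.40 ± 0.31), Cideb (4.81 ± 0.85) and Fitm1 (5.75 ± 0.79). The factors of fat cell formation were called higher in adipose tissue in 8 of 15 cases and higher in liver in 1 (median -1.21). Ebf1 stood at 3.85, 3.47 and 2.43 in adipose tissue and -3.80, -3.15 and -4.59 in liver, Ebf2 was at least 15.4-fold higher in adipose tissue, and Nr1h3, the oxysterol receptor LXR alpha, was higher in liver (0.82 ± 0.26, adjusted p = 0.0388, and 0.0626 without adipose replicate 2). Among 10 genes known from brown adipocytes, 6 were called higher in adipose tissue and 1 higher in liver (median -2.56, or -1.66 at the bounds). Cox8b differed by -6.84 ± 0.44 and Cidea by -2.28 ± 0.51, while Elovl3, which male liver also makes, differed by 4.83 ± 0.68. Ucp1, the uncoupling protein that defines brown fat, did not pass the filter on dim probes in either tissue. Fitm1 was well above background on 1 of the 3 adipose arrays, and Ebf1 and Cox8b on 1 of the 3 liver arrays.

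Matrix and positional genes were higher in adipose tissue. Of 27 extracellular matrix genes, 24 were called higher in adipose tissue and 1 higher in liver (median -3.25). Mfap5, a microfibril protein, stood at 3.42, 3.47 and 3.75 in adipose tissue and -2.97, -3.34 and -3.08 in liver, a difference of -6.68 ± 0.23 (adjusted p = 7.14e-06). Fbn1, fibrillin, differed by -5.46 ± 0.29, Col15a1 by -5.83 ± 0.27 and Col6a2 by -4.90 ± 0.36. The 3 probes of Col15a1 gave differences from -5.93 to -1.61. Fn1, fibronectin, which hepatocytes secrete into plasma, was the 1 gene higher in liver (0.71 ± 0.24, adjusted p = 0.044), and that call was lost whichever of the 6 arrays was left out. Hox genes, which encode position along the body axis, were tested for 25 of 39 members, and 19 were called higher in adipose tissue and 1 higher in liver (median -3.24, or -2.58 at the bounds). Hoxa7 stood at 2.44, 2.71 and 2.53 in adipose tissue and -3.10, -3.80 and -3.53 in liver, Hoxc8 at 3.62, 3.49 and 1.95 in adipose tissue and -2.06, -2.51 and -2.59 in liver, and Hoxc4 was at least 177-fold and Hoxc6 at least 52-fold higher in adipose tissue. Hoxc10 was higher in liver (1.04 ± 0.24), a call lost without liver replicate 3. Fibroblast and preadipocyte markers were called higher in adipose tissue in 15 of 16 cases and higher in liver in 1 (median -2.82). Pi16, of a progenitor population, stood at 4.44, 4.38 and 4.33 in adipose tissue and 0.46, 0.26 and 0.39 in liver, and Dpp4, which marks the same cells and is also made by hepatocytes, was the 1 gene higher in liver, at 1.68 ± 0.32. Col15a1 was well above background on 1 of the 3 liver arrays, and Mfap5, Fbn1, Col6a2 and Hoxa7 on 2 of the 3 liver arrays.

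Markers of the mesenchymal, endothelial and macrophage cells known from liver were mostly higher in liver. Stellate cell markers were called higher in liver in 7 of 10 cases and higher in adipose tissue in 2 (median 3.41). Lrat, which stores retinol, stood at -7.20, -2.94 and -5.86 in adipose tissue and 0.42, 0.45 and 0.26 in liver. Reln, reelin, was at least 14-fold higher in liver and Ngfr differed by 3.49 ± 0.27. Pdgfrb, shared with pericytes, was higher in adipose tissue (-2.27 ± 0.26). Lrat was highest among the adipose arrays on replicate 2. Ngfr was lowest there, at -2.51 against -2.42 and -2.29 on the other adipose arrays. Lrat was well above background on 1 of the 3 adipose arrays.

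Endothelial genes divided by vessel type. Markers of liver sinusoidal endothelium were called higher in liver in 8 of 11 cases and higher in adipose tissue in 1 (median 3.23). Clec4g stood at -2.75, 0.77 and -2.54 in adipose tissue and 4.39, 3.52 and 4.24 in liver and Stab2, a scavenger receptor, at -2.59, 0.60 and -1.55 in adipose tissue and 4.06, 3.76 and 3.77 in liver. Adipose replicate 2 was again the highest adipose array for both. Lyve1, shared with lymphatic vessels, was higher in adipose tissue (-1.01 ± 0.22). General vascular endothelial markers were called higher in adipose tissue in 14 of 18 cases and never higher in liver (median -1.74). Cldn5, a tight junction protein, stood at 4.48, 4.60 and 4.77 in adipose tissue and 1.57, 1.69 and 1.47 in liver, and Pecam1 differed by -2.32 ± 0.28. Gpihbp1, which holds lipoprotein lipase on capillaries, differed by -1.24 ± 0.21.

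Macrophage genes divided likewise. Kupffer cell markers were called higher in liver in 6 of 10 cases and higher in adipose tissue in 2 (median 1.82). Clec4f, a lectin of Kupffer cells, stood at -1.29, 2.17 and -1.13 in adipose tissue and 4.89, 4.96 and 5.25 in liver, with adipose replicate 2 far above the other adipose arrays. Its difference was 5.11 ± 0.85, and 6.24 without adipose replicate 2. Vsig4 differed by 4.65 ± 0.50 and Cd5l by 4.09 ± 0.51, while Cd163 (-2.14 ± 0.30) and Folr2 (-1.77 ± 0.24), of resident macrophages in many tissues, were higher in adipose tissue. General macrophage markers were called higher in adipose tissue in 10 of 20 cases and in 0 higher in liver (median -0.74), and 5 were called without adipose replicate 2. Ccr2, the receptor that recruits monocytes, stood at 1.70, 1.20 and 1.07 in adipose tissue and -2.67, -1.42 and -1.81 in liver. Mast cell markers were called higher in adipose tissue in 5 of 6 cases (median -3.44, or -2.25 at the bounds), with Mcpt4 at least 41.3-fold higher and Kit not called without adipose replicate 1, adipose replicate 3 or liver replicate 3. Cd163 was well above background on 2 of the 3 liver arrays.

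Calls in the lymphoid and blood cell lists went both ways, where 22.0% of all genes were called higher in liver and 19.1% higher in adipose tissue. T and NK cell markers had 3 called higher in liver and 4 higher in adipose tissue of 15, B cell markers 2 and 0 of 7, neutrophil markers 1 and 1 of 6, and erythroid markers 3 and 1 of 7. Without adipose replicate 2 the counts were 3 and 1, 1 and 0, 0 and 0, and 2 and 0. Zap70, a kinase of T cells, stood at -0.37, 0.10 and -0.16 in adipose tissue and 2.45, 2.91 and 2.45 in liver, and Cd2 went the other way, at -2.92 ± 0.40. Klf1, an erythroid factor, was at least 16.7-fold higher in liver, and Car1, a red cell enzyme, differed by 1.90 ± 0.22. Cd2 was well above background on 2 of the 3 liver arrays.

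Lining, muscle and nerve markers were mostly higher in adipose tissue. Mesothelial markers were called higher in adipose tissue in 9 of 13 cases and higher in liver in 2 (median -3.44). Upk3b stood at 2.64, 1.98 and 2.30 in adipose tissue and -2.38, -2.11 and -1.61 in liver, Muc16 differed by -5.16 ± 0.38 and Msln, mesothelin, by -4.42 ± 0.71. The 2 higher in liver were Krt8 (3.77 ± 0.51) and Krt18 (3.13 ± 0.57), the keratins of hepatocytes. Cholangiocyte markers had 4 called higher in liver and 2 higher in adipose tissue of 8, with Sox9 at 1.32 ± 0.27 and the keratin Krt19, which the mesothelial list also holds, at -2.85 ± 0.51. Smooth muscle and pericyte markers were called higher in adipose tissue in 10 of 12 cases (median -3.33, or -2.76 at the bounds), with Acta2 at -4.10 ± 0.25 and Cspg4 at -5.37 ± 0.36. Of 5 skeletal muscle markers tested, 3 were called higher in adipose tissue, with Acta1 at 2.27, 3.26 and 2.44 in adipose tissue and -2.13, -2.56 and -2.82 in liver. Of 6 Schwann cell markers, 3 were called higher in adipose tissue, with Mbp, a myelin protein, at -3.64 ± 0.32 and Pmp22 at -3.37 ± 0.23. Pancreas acinar markers (1 of 4 called) and epididymis and testis markers (1 of 3 called) gave little, and Cela2a, an elastase, was at least 3.72-fold higher in liver. Muc16 and Acta1 were well above background on 2 of the 3 liver arrays.

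**Figure D5:**
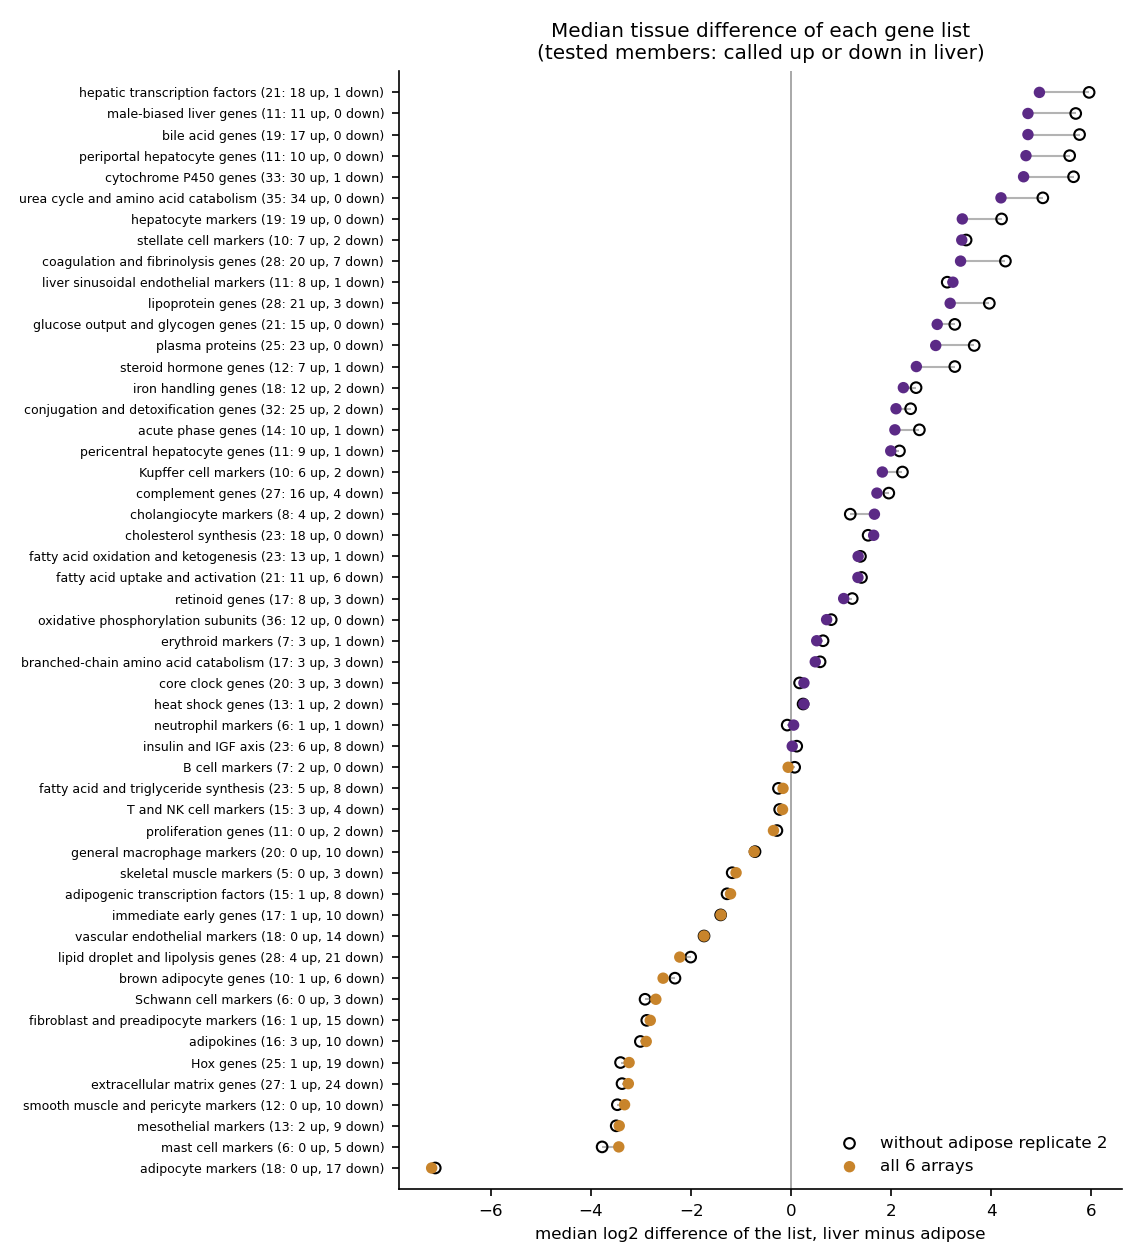
Median difference, liver minus adipose tissue, of each list with at least 5 tested members, as log2 values. Filled points use all 6 arrays (purple where the median is above 0, orange below), open points leave out adipose replicate 2, and each label gives the tested members and how many were called higher (up) or lower (down) in liver. Medians run from -7.18 for adipocyte markers to 4.96 for hepatic transcription factors, and open points lie farther from 0 for the hepatocyte lists at the top.

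Energy, stress and hormone lists had medians from -1.40 to 2.50. Of 36 oxidative phosphorylation subunits, 12 were called higher in liver and 0 higher in adipose tissue, against 22.0% and 19.1% of all genes, with a median of 0.71 against 0.18 for all genes. This depended on the scaling, since 6 were called with the percentile over detected probes (median 0.47) and 1 under quantile normalization (median 0.09). Cox5a, of complex IV, stood at 3.89, 4.28 and 3.80 in adipose tissue and 5.28, 5.08 and 5.24 in liver. Immediate early genes had 10 called higher in adipose tissue and 1 higher in liver of 17 (median -1.40, or -1.22 at the bounds). Klf4 stood at 1.03, 0.66 and 1.24 in adipose tissue and -3.22, -3.60 and -3.20 in liver, Jun differed by -1.52 ± 0.23, and Egr1 was the 1 higher in liver, at 1.44 ± 0.26. Heat shock genes had 1 called higher in liver and 2 higher in adipose tissue of 13 (0 and 1 without adipose replicate 2), and proliferation genes 0 and 2 of 11. The insulin and IGF genes had 6 called higher in liver and 8 higher in adipose tissue of 23 (median 0.02). Igfbp1 differed by 4.97 ± 0.67, Igfbp2 by 4.10 ± 0.67, Igf1r, the receptor, by -2.41 ± 0.38, and Igfbp6 by -4.44 ± 0.52. Igf1, the hormone made by liver, stood at 5.10, 5.33 and 5.60 in adipose tissue and 6.91, 6.25 and 6.67 in liver, and its 5 probes gave differences from -0.39 to 1.27. Its call (limma, adjusted p = 0.00721) was lost under quantile normalization, where the difference was 0.53, and with the median over its probes, where it was 0.49. Of 12 steroid hormone genes, 7 were called higher in liver and 1 higher in adipose tissue (median 2.50, or 3.27 without adipose replicate 2), with Srd5a1, which reduces steroid hormones, at 4.25 ± 0.62. Of 17 retinoid genes, 8 were called higher in liver and 3 higher in adipose tissue (median 1.05, or 1.22 without adipose replicate 2), with Rdh16 at 5.27 ± 0.98, Rbp7 at least 51.7-fold higher in adipose tissue and Aldh1a2, which makes retinoic acid, at -5.93 ± 0.37. Klf4 and Aldh1a2 were well above background on 2 of the 3 liver arrays.

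The clock protein PER1 is what the control and mutant mice of the series differ in, and the core clock genes were compared between the organs at this time. The loop runs from the activators CLOCK and BMAL1 (Arntl) to the repressors PER and CRY, with the REV-ERB receptors (Nr1d1 and Nr1d2) in a second loop. Of 20 core clock genes, 3 were called higher in liver and 3 higher in adipose tissue, near or under the 22.0% and 19.1% of all genes, with a median of 0.26 against 0.18. Arntl stood at 0.53, 0.17 and 0.27 in adipose tissue and 0.67, 1.17 and 0.94 in liver (difference 0.60 ± 0.24, adjusted p = 0.0802). Clock (-0.29 ± 0.26), Npas2 (0.41 ± 0.30), Per2 (0.16 ± 0.26), Cry2 (-0.67 ± 0.36), Nr1d1 (0.80 ± 0.28) and Dbp (-0.71 ± 0.33) were not called, with adjusted p from 0.0551 to 0.635. Among those higher in liver were Nfil3, a repressor of D-box genes, at 0.81, 1.25 and 1.64 in adipose tissue and 3.77, 3.15 and 3.28 in liver (difference 2.16 ± 0.30), and Hlf, a D-box activator (2.12 ± 0.36). Higher in adipose tissue were Csnk1e, the kinase that phosphorylates PER proteins (-1.92 ± 0.22, with a second probe at -0.15), Usp2, a deubiquitinase (-2.09 ± 0.39), and Per1. The brightest Per1 probe (mm9 chromosome 11, 68923364 to 68923423) stood at -0.30, -0.23 and 0.13 in adipose tissue and -3.26, -3.33 and -3.41 in liver, a difference of -3.20 ± 0.23 (adjusted p = 7.37e-05). It was well above background on 2 of the 3 liver arrays. A second Per1 probe gave 1.20, in the opposite direction, and no source used here tells if these probes detect human PER1 RNA too. Per2 was well above background on 2 of the 3 liver arrays.

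Whether the organ difference at control ZT1 differed from its mean in the other 3 conditions was tested over all 24 arrays. Of 24320 genes, 791 were called (3.25%), with 425 (1.75%) where liver minus adipose tissue was higher at control ZT1 than the mean of the other conditions and 366 (1.50%) where it was lower. Without adipose replicate 2, 265 of 25423 were called (1.04%), with 137 higher (0.539%) and 128 lower (0.503%), and without liver replicate 3 there were 365. With slide as a block 680 were called, and 509 of these were among the 791. Control ZT1 lies on slide 1 and most arrays of the other conditions on slides 2 and 3, so slide and condition cannot be fully told apart. The only liver arrays on slide 1 are those of control ZT1. A call kept with slide as a block therefore does not take out a slide effect particular to liver. The control ZT1 liver arrays were also dimmer, with 75th percentiles of 377, 673 and 539 intensity units against 764 to 983 on the other liver arrays. What part this brightness has in the calls was not tested. Among the 425 higher calls, 120 had a control ZT1 group with no array well above background, and 156 were well above background on all 24 arrays. Among the 366 lower calls the numbers were 39 and 200.

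The hepatocyte markers had the smallest median organ difference at control ZT1, with medians of 3.42 at control ZT1, 4.98 at control ZT13, 7.04 at mutant ZT1 and 6.56 at mutant ZT13. In the test between conditions 0 of the 19 were called (limma, median -2.91), and the liver levels of the list lay between 6.55 and 7.18 on all 12 arrays. The adipocyte markers gave -7.18, -7.80, -7.75 and -8.20. Among genes named by the size of the gap, Tm4sf4, a membrane protein related to tetraspanins, had organ differences of 4.75 at control ZT1, 8.06 at control ZT13, 9.46 at mutant ZT1 and 9.97 at mutant ZT13, a gap of -4.41 ± 0.84 (adjusted p = 0.00854, and 0.04 without adipose replicate 2). Mfsd2a, a lysophospholipid transporter, had 2.48 at control ZT1, 7.98 at control ZT13, 5.54 at mutant ZT1 and 6.22 at mutant ZT13, a gap of -4.10 ± 0.71 (adjusted p = 0.00462). Its liver level at control ZT1 was -1.17 against 4.41 at control ZT13. Pax2 had 3.08 at control ZT1, 6.86 at control ZT13, 7.41 at mutant ZT1 and 8.62 at mutant ZT13, and was not called without adipose replicate 2 (adjusted p = 0.0515). Tm4sf4 was well above background on 0 and Mfsd2a on 1 of the 3 adipose arrays at mutant ZT1, and each on 1 at mutant ZT13, so these gaps rest partly on values at background.

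Clock and Hox genes were also called in this test. Of the 20 core clock genes 2 were called, both lower at control ZT1, against 1.50% of all genes. Per1 had organ differences of -3.20 at control ZT1, -0.80 at control ZT13, -1.34 at mutant ZT1 and -1.17 at mutant ZT13, a gap of -2.09 ± 0.32 (adjusted p = 0.00191). Usp2 had -2.09 at control ZT1, 1.07 at control ZT13, 0.85 at mutant ZT1 and -1.50 at mutant ZT13, a gap of -2.23 ± 0.36 (adjusted p = 0.00308). Both kept the call without adipose replicate 2, with slide as a block and under quantile normalization. Lpin1, the triglyceride enzyme named above, had -2.63 at control ZT1, 1.15 at control ZT13, -0.87 at mutant ZT1 and -2.54 at mutant ZT13, a gap of -1.87 ± 0.23 (adjusted p = 0.000328), and its liver level was 0.01 at control ZT1 against 4.90 at control ZT13. Of the 25 Hox genes tested above, 8 were called higher and 0 lower, against 1.75% of all genes for higher (5 and 0 without adipose replicate 2). Hoxd8 and Hoxd9, among the 8, were not well above background on any liver array of any condition. The mean liver value of Hoxd8 was still higher at control ZT1, at -5.58, than at control ZT13 (-6.52), mutant ZT1 (-6.27) and mutant ZT13 (-6.99). The dimmer control ZT1 liver arrays may thus have a part in the Hox calls, which was not tested. Under quantile normalization Hoxa6, Hoxa7, Hoxd8 and Hoxd9 were not called (adjusted p = 0.0635, 0.206, 0.197 and 0.0736). Hoxc5, chosen with Hoxb9 after its values were seen, had organ differences of 0.00 at control ZT1, -1.59 at control ZT13, -1.83 at mutant ZT1 and -2.04 at mutant ZT13 (adjusted p = 0.000328), and Hoxb9 -0.42 at control ZT1, -2.48 at control ZT13, -2.26 at mutant ZT1 and -2.59 at mutant ZT13 (adjusted p = 0.000596). Their liver levels were 0.52 and -2.12 at control ZT1 and -0.77 and -4.04 at control ZT13. Both were well above background on all 3 control ZT1 liver arrays and kept the call with slide as a block and under quantile normalization. No liver array of another condition lay on the slide of these arrays, so the block cannot take out a slide effect particular to liver.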

How the data were processed

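The arrays held 62976 spots each. Per the file headers, the authors scanned them in 1 colour and extracted spot intensities with Agilent Feature Extraction 10.7.3.1, on a design with mm9 probe positions. The deposited intensity is background-subtracted within the array, and other deposited columns, flags for outlier, saturated and well-above-background spots, are the scanner software's. Per the labels, each sample is 1 array. The authors' deposited table holds log2 values, equal within 0.01 to the log2 intensity less a constant near the 75th percentile of the array. Here, outlier spots were dropped, spots of a probe averaged, and the main value was log2 intensity minus the 75th percentile over non-control spots.

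Probes had to be well above background on all usable arrays of a group. The brightest probe stood for its gene, and other probes of a gene can differ from it. The values of other probes are given for some genes only. Of 55681 probes, 26863 were named by accession, 3752 by symbol and 623 by synonym from RefSeq, and 24443 kept the file's name. limma 3.58.1 (R 4.3.3) gave two-sided tests with Benjamini-Hochberg adjustment, and treat tested against a fold of 2. With 3 arrays a group, precision is limited by their number. In simulated data, 50 genes were changed at each size and all others were left without a difference. There the organ test over 20965 genes recovered 4%, 50%, 86% and 88% of genes changed by 1, 2, 3 and 4 on the log2 scale. The test between conditions over 24320 genes recovered 18%, 68%, 98% and 96%. In the real organ comparison 41.1% of genes were called. The adjustment is stricter where few genes differ, so the simulated shares do not measure recovery in that comparison.

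The members and the 55 gene lists were chosen with earlier results of these data known. Genes were named by a rule: the 10 largest differences and 10 largest bounds per direction, up to 5 called members per list and direction (where under 3 were called, those of lowest p), the isozyme pairs, the core clock and 8 genes per direction of the test between conditions. The largest differences and bounds were taken among called genes with an ordinary symbol (no Rik, Gm, LOC or accession name). For the differences, liver and adipose values also could not overlap. Genes outside the rule are marked as chosen after their values were seen. Alternatives covered background, scaling, filter, probe choice, blocks, array weights and each control ZT1 array left out. No annotation was used to place a probe in an exon or UTR. Some genes that the rule names, and 3 isozyme pairs of the plot, are not reported here.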

Additional observations from a re-analysis of the deposited data

Results flagged for a closer look

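The results here were picked out because the organ difference at control ZT1 differed from its mean in the other 3 conditions by limma's test of that difference over 24 arrays. They are the 8 genes or probes of largest gap in each direction. Gaps are log2 values, control ZT1 minus the mean of the others, and liver minus adipose tissue in each. Gaps below 0 were -5.72 for Gm2011, -5.30 for Hsbp1l1, -4.79 for 4933413J09Rik, -4.55 for Pax2, -4.41 for Tm4sf4, -4.10 for Mfsd2a, -4.05 for Sult1c2 and -3.89 for 1810053B23Rik. Without adipose replicate 2 the calls for Gm2011 and Pax2 were lost (adjusted p = 0.0584 and 0.0515), and the other 6 had an adjusted p between 0.00124 and 0.0408. With slide as a block all 8 kept the call. The last of them, 1810053B23Rik, was well above background on no array of either control ZT1 group and on no adipose array of the other conditions. Hsbp1l1, 4933413J09Rik and Sult1c2 were well above background on 1, 2 and 1 of the 3 adipose arrays at control ZT1 and on 0 in the other conditions, so the sizes of these gaps are not exact. Gm2011 was so on 1 liver array at control ZT1 and on 0 adipose arrays at mutant ZT1. The organ difference of the 8 at control ZT1 ran from -3.11 (Gm2011) to 4.75 (Tm4sf4).

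Gaps above 0 were 4.75 for the probe A_55_P2144305, 4.42 for Camsap2, 4.24 for Smkr-ps, 4.14 for AK080020, 3.97 for Prkg2, 3.84 for AA388235, 3.80 for Lix1 and 3.66 for Gm8239. None of these 8 was called without adipose replicate 2 (limma, adjusted p between 0.0510 and 0.110). With slide as a block AK080020 and AA388235 were not called (adjusted p = 0.0949 for the first). The control ZT1 adipose group had 0 arrays well above background for A_55_P2144305 and Gm8239, and 1 for AA388235. Hepatocyte transcripts were highest on adipose replicate 2 of the control ZT1 group, and their part in these gaps was not tested.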

How the results depend on the processing

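With 8617 genes called and 3266 past 2-fold, leaving out each array in turn gave 6544 to 7870 called and 2492 to 3128 past 2-fold. Past 2-fold, 1882 genes were called when all 6 arrays had to be well above background. With 24 arrays and slide as a block 13047 genes were called. The test between conditions, with 791 calls, gave 265 to 931 calls with each control ZT1 array left out in turn. Under quantile normalization it gave 439, with 344 of them shared. The rise of the hepatocyte marker level on adipose replicate 2 over the mean of replicates 1 and 3 was 2.56, and ran from 2.11 to 2.87 over the alternatives in scaling and background. The uncalled difference of AK080020 (0.76) ran from -1.13 without liver replicate 2 to 1.87 without liver replicate 3, and the called one of Nnmt (-0.71) turned to 0.19 with the median over probes; the cause was not tested. Of the 344 named genes called, 301 were called under every alternative. With the replicate block 6997 genes were called and 3040 past 2-fold. The liver and adipose samples share numbers, but the labels do not say which samples share an animal, so they were not treated as paired. Same-numbered samples correlated at -0.421, 0.148 and -0.151 in their deviations from the group means, and unlike-numbered ones at -0.617 to 0.65. Deviations of 3 arrays sum to 0 for each gene, so these correlations cannot show whether samples share an animal. Signal over background limits genes seen in 1 organ only, which carry bounds.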

Other observations

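Further members of the lists had an organ difference at control ZT1 that differed from its mean over the other 3 conditions, and kept that call without adipose replicate 2, with slide as a block and under quantile normalization. They were chosen after their values were seen. Lpl, lipoprotein lipase, had organ differences of -2.72 at control ZT1, -3.98 at control ZT13, -4.33 at mutant ZT1 and -4.17 at mutant ZT13 (adjusted p = 0.0088, limma). Grb10, an adaptor that dampens insulin receptor signals, had 0.02 at control ZT1, -1.96 at control ZT13, -2.30 at mutant ZT1 and -1.18 at mutant ZT13 (adjusted p = 0.00266). Ppp1r3c, which targets a phosphatase to glycogen, had 2.92 at control ZT1, 0.67 at control ZT13, 1.27 at mutant ZT1 and 1.15 at mutant ZT13 (adjusted p = 0.0118). Hspa1a, an inducible heat shock chaperone, had -0.43 at control ZT1, 1.82 at control ZT13, -0.50 at mutant ZT1 and 2.26 at mutant ZT13 (adjusted p = 0.00764), with values at mutant ZT1 near those at control ZT1 and a liver level of -0.68 at control ZT1 and 1.81 at control ZT13. Slide and condition are largely confounded across these groups.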
